A study of Mus musculus with 6 samples.

Results

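The receptors Tyro3, Axl and Mertk, together called TAM receptors, and the secreted proteins that tie them to dying cells were looked up by gene symbol among the 754 genes of a NanoString nCounter panel measured in sorted peritoneal macrophages. Of the 6 symbols sought (Mertk, Axl, Tyro3, Gas6, Pros1 and Mfge8), 2 had a value, the receptor Mertk and its ligand Pros1. They were looked up by name, with earlier results of these data known. Axl, Tyro3, Gas6 and Mfge8 were not analysed here. The samples came from C57BL/6J mice that carried intraperitoneal tumors of ID8 cells, a mouse ovarian cancer line, for 7 weeks, and the sorted cells were positive for F4/80 and CD11b. A group of 3 samples received PBS and another group of 3 samples received IRF5-NPs, with 30 µg of mRNA for mouse IRF5 in each dose, and in both groups 2 doses were injected into the peritoneum, on days 1 and 5. The labels name IRF5 mRNA alone, whereas the study's methods name the mice albino B6 (C57BL/6J-Tyr<c-2J>) and describe particles of a cationic polymer with a di-mannose coat that carry IRF5 mRNA together with mRNA for its kinase IKKβ, a larger amount of mRNA per dose, tumor cells that also express VEGF, and a shorter time of tumor growth. Particles with an unrelated mRNA were not analysed here, so that effects of the particle and of its cargo cannot be told apart. The labels do not say whether each sample came from a separate mouse. The legend of the study's figure that holds this experiment speaks of biologically independent samples, more of them per group than were given here, so that it does not settle what these samples are. The tests therefore measure the spread between samples, which may be technical.

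Dying cells expose the lipid phosphatidylserine on their surface. Pros1 (protein S) and Gas6 bind this lipid with one end and a TAM receptor with the other, and Mfge8 joins the lipid to integrins in the same way. Binding activates the kinase of the receptor, which drives engulfment of the dying cell and restrains the release of inflammatory cytokines, and Mertk is the TAM receptor best known for this role in macrophages. Pros1 is also a plasma protein that limits blood clotting.

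Mertk and Pros1 went in opposite directions after IRF5-NPs. Mertk fell 2.34-fold, past the threshold of the test, whereas the higher values of Pros1 did not pass. The regions before the RefSeq start of both genes are shown because these are the genes whose transcripts were counted. They span 250 bases in the build GRCm38.p6 on the plus strand, chr2:128698665-128698914 for Mertk and chr16:62854057-62854306 for Pros1, written 5′ to 3′, with matches to the GC box in capitals.
Mertk: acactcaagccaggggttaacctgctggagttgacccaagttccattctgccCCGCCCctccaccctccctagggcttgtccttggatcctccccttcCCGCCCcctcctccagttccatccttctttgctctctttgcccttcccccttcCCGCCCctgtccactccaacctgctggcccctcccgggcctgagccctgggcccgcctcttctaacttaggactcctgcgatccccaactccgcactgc
Pros1: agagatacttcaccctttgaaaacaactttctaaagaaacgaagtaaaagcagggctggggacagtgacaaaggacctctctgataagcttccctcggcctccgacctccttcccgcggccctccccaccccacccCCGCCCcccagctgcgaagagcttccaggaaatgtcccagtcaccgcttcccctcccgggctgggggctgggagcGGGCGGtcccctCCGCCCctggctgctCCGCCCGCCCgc
The GC box (GGGCGG, or CCGCCC on the other strand) matched at 3 places in the Mertk region and at 5 places in the Pros1 region, 2 of which overlap each other, and 32.7% of 32851 RefSeq promoter regions of the same length hold at least 1 match. The region was 63.6% G and C for Mertk and 64.4% for Pros1, against a median of 52.4% over these promoter regions. CG dinucleotides numbered 7 and 15, against a median of 6. The letters GAAANNGAAA, a common form of the motif of interferon regulatory factors, were searched on both strands and were in neither region, whereas 2.98% of the promoter regions hold them. A match or its absence is a description of these letters and says nothing of binding.

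The depth and the agreement of the samples came first. Each value was a whole multiple of a factor particular to its sample, to within 0.01 normalized counts for all 754 genes, and division by this factor gave the counts. Another check, of the steps between values, found whole counts in the PBS samples only, so that the counts and counting intervals of the IRF5-NP samples rest on the first check. They summed to 1830318, 1603281 and 1302733 in PBS replicates 1, 2 and 3, and to 1293665, 1598272 and 683472 in IRF5-NP replicates 1, 2 and 3. The background, set at the mean plus 2 SD of 8 negative control probes, was 79.4 normalized counts in the shallow IRF5-NP replicate 3 and 25.6 to 37.8 in the other samples. PBS replicates 2 and 3 differed by no more than sampling noise (chi-square per degree of freedom 1.07, with 753 degrees of freedom, p = 0.0782). The same ratio was 179 for PBS replicates 1 and 2, and 7.07 for IRF5-NP replicates 2 and 3. PBS replicates 2 and 3 were therefore averaged and counted as 1 sample, and all group means below stand for 2 PBS samples and 3 IRF5-NP samples.

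Mertk had 1833, 1179 and 1107 normalized counts in PBS replicates 1, 2 and 3. In IRF5-NP replicates 1, 2 and 3 it had 597, 616 and 642. Every IRF5-NP sample lay below every PBS sample, and PBS replicate 1 stood above the other PBS samples, by 1.60-fold over the mean of PBS replicates 2 and 3. Groups that do not overlap, with lower values after IRF5-NPs, were found for 20.4% of all genes. The counts behind these values ran from 247 in IRF5-NP replicate 3 to 1768 in PBS replicate 1. The exact 95% Poisson interval, which covers counting error only, was 564 to 727 normalized counts in IRF5-NP replicate 3 and overlapped those of the other IRF5-NP samples (551 to 645 and 566 to 670). It was 1035 to 1182 in PBS replicate 3, above all of these. Mertk stood 8.09 to 24.1 times over the background with IRF5-NPs and 39.3 to 48.4 times with PBS.

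Mertk averaged 1488 ± 489 (SD, n = 2) normalized counts in the PBS group and 618 ± 22.6 (SD, n = 3) in the IRF5-NP group. The log2 fold change was -1.23, or 2.34-fold lower, with a standard error of 0.24 and a 95% interval that starts at -1.79 and ends at -0.66 (two-sided limma test of log2 values, to which a pseudocount of 1 was added, adjusted p = 0.0218 over 754 genes). In this comparison 9.55% of all genes passed the adjusted threshold of 0.05, 7.03% as lower and 2.52% as higher, and of the 2 genes sought here Mertk passed. Of the 72 genes past it, 19 were higher and 53 lower, a split that was 42 to 36 with each sample scaled to a common median and 35 to 40 with quantile normalization. The median change of all genes was -0.03, and 0.21 and 0.11 under these scalings. Relative to this median Mertk was at -1.20 as deposited, which a common median leaves as it is by construction, and at -1.06 with quantile normalization. The two-sided exact permutation test on Mertk gave p = 0.1, the smallest value that 2 against 3 samples allow. The direction was the same with each sample left out in turn, but the call was not. With PBS replicate 1 left out the log2 fold change of Mertk was -0.89 (limma adjusted p = 0.0741), and with IRF5-NP replicate 1, 2 or 3 left out it was -1.20 (0.0580), -1.22 (0.0601) or -1.25 (0.121), so that it missed the threshold each time. With PBS replicate 2 or 3 left out it passed.

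Pros1 had 237, 470 and 459 normalized counts in PBS replicates 1, 2 and 3, from 229 to 454 counts. In IRF5-NP replicates 1, 2 and 3 it had 514, 971 and 1138 normalized counts, from 438 to 881 counts. All IRF5-NP samples were above all PBS samples, as was the case for 17.0% of all genes, but IRF5-NP replicate 1 was only just above PBS replicate 2, and their 95% Poisson intervals overlap (472 to 559 and 427 to 515 normalized counts). The samples of each group were further apart than for Mertk, with PBS replicate 1 lower than the mean of PBS replicates 2 and 3 by 1.95-fold and IRF5-NP replicate 1 lower than that of IRF5-NP replicates 2 and 3 by 2.04-fold. Pros1 averaged 351 ± 161 (SD, n = 2) normalized counts in the PBS group and 874 ± 323 (SD, n = 3) in the IRF5-NP group. The log2 fold change was 1.32, with a standard error of 0.41 and a 95% interval from 0.37 to 2.26 (limma adjusted p = 0.0811). This difference did not pass the threshold, and the two-sided exact permutation test gave p = 0.2. With each sample left out in turn it lay between 0.83 without PBS replicate 1 and 1.66 without IRF5-NP replicate 1, with an adjusted p of 0.0536 or more.

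**Figure D1:**
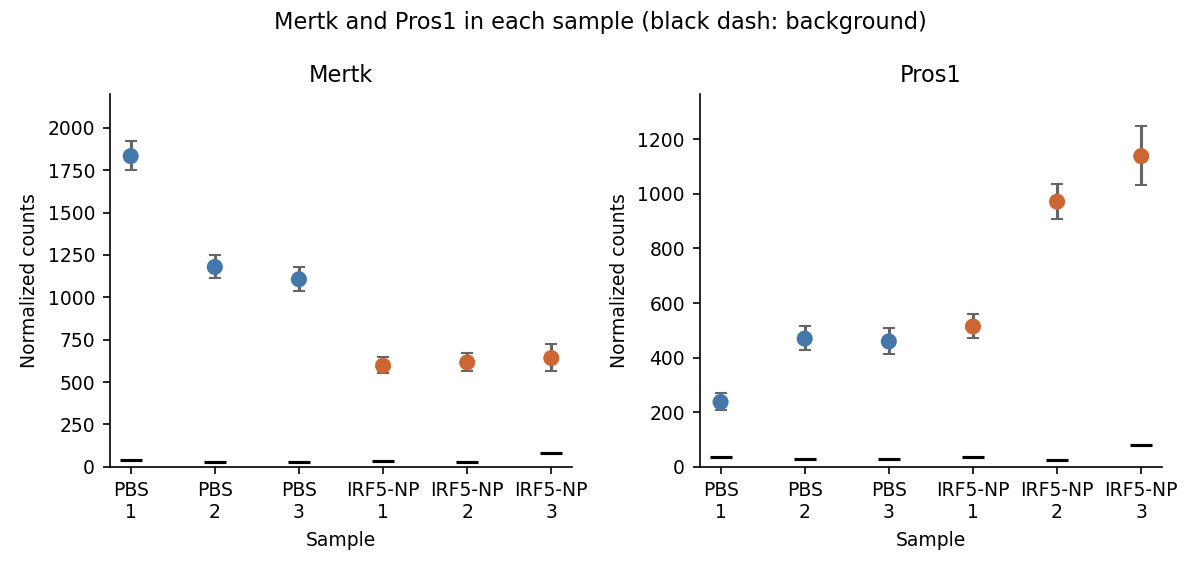
Normalized counts of Mertk (left) and Pros1 (right) in each of the 6 samples, blue for PBS and orange for IRF5-NP, with the exact 95% Poisson interval as bars and the background of each sample as a black dash. The 3 IRF5-NP values of Mertk lie between 597 and 642, below all PBS values, and the Pros1 values of PBS replicate 2 and IRF5-NP replicate 1 have overlapping intervals.

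Since the receptor and the ligand were counted in the same samples, the log2 value of Pros1 minus that of Mertk was taken within each sample. It was -2.94, -1.33 and -1.27 in PBS replicates 1, 2 and 3, and -0.22, 0.66 and 0.83 in IRF5-NP replicates 1, 2 and 3. Its mean was -2.12 ± 1.16 (SD, n = 2) in the PBS group and 0.42 ± 0.56 (SD, n = 3) in the IRF5-NP group. The means lay 2.54 apart. That the groups did not overlap follows from the values of both genes given above. Probes differ in how well they bind, so that the value within 1 sample does not say which transcript was more abundant.

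Mertk and Pros1 were next set beside the wider machinery of dying cell uptake, a list of 64 genes, of which 26 had a value. Above the background in every sample were 23 of them, and 24 in at least 1 sample. By limma 3 of the 26 passed, 2 as higher and 1 as lower, a share of 11.5% against the 9.55% of all genes. Their median log2 fold change was -0.11, against -0.03 for all genes. The split was 3 higher and 0 lower with a common median or quantile normalization, and 4 higher and 0 lower without IRF5-NP replicate 1. The number of its genes past the threshold was 1 when PBS replicate 1 or IRF5-NP replicate 3 was left out and 5 when PBS replicate 2 was left out.

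Among 9 uptake receptors, Timd4 (Tim-4), a receptor that binds phosphatidylserine directly and marks resident peritoneal macrophages, rose. It had 124, 197 and 207 normalized counts with PBS and 472, 1182 and 1263 with IRF5-NPs, in the order of the replicate numbers. The groups did not overlap, and the log2 fold change was 2.48 (standard error 0.44, limma adjusted p = 0.0155), the highest of all 754 genes. Timd4 lost the call with PBS replicate 1 left out (2.14, adjusted p = 0.103), and likewise for IRF5-NP replicate 3 (2.23, 0.0954). Havcr2 (Tim-3), another receptor of the same family that can bind phosphatidylserine, fell from 357, 390 and 363 normalized counts to 119, 157 and 210, again without overlap. Its log2 fold change of -1.21 (limma adjusted p = 0.0360) was close to that of Mertk, and the call was lost with PBS replicate 1 left out (-1.25, adjusted p = 0.121), and likewise for IRF5-NP replicate 1 (-1.01, 0.0613), 2 (-1.21, 0.0860) or 3 (-1.42, 0.0650). With a common median the log2 fold change of Havcr2 was -0.97 (adjusted p = 0.0618).

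The scavenger receptors did not pass. Cd163, which takes up haemoglobin bound to haptoglobin, had 2310 normalized counts in PBS replicate 1 but 425 and 423 in PBS replicates 2 and 3, and 210, 206 and 210 with IRF5-NPs (log2 fold change -2.24, limma adjusted p = 0.0579). All IRF5-NP values were lower, but PBS replicate 1 was 5.44-fold above the mean of the other PBS samples, and without it Cd163 was at -1.02 (adjusted p = 0.0703). Marco had 4085, 5218 and 5087 normalized counts with PBS and 5199, 16556 and 15947 with IRF5-NPs (1.28, adjusted p = 0.160). Its groups overlapped, since IRF5-NP replicate 1 lay at the level of PBS. Stab1 (stabilin-1), which binds phosphatidylserine as well, was at -0.53 (adjusted p = 0.283), and Cd36, Cd14 and Olr1 overlapped between the groups. Havcr1 was below the background in every sample.

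Of 8 bridging proteins and other coats of dying cells, none passed by limma or by the methods' t-test after adjustment. Against 191 of all 754 genes, 1 of the 8 had an unadjusted p under 0.05 by limma. This was Fn1 (fibronectin), with 15752, 32947 and 31764 normalized counts with PBS and 51654, 71276 and 64349 with IRF5-NPs. The Fn1 groups did not overlap, and the log2 fold change was 1.45 (adjusted p = 0.0683), in the direction of the ligand Pros1. Fn1 passed with a common median (1.69, adjusted p = 0.0437) and with quantile normalization (1.66, 0.0399), but was at 0.94 (0.421) without PBS replicate 1 and at 1.46 (0.20) with background subtraction. The complement C1q chains, which coat dying cells, were at -0.11 for C1qa, -0.28 for C1qb and -0.44 for C1qc, with adjusted p-values of 0.895, 0.705 and 0.584 and overlapping groups. Ptx3 was below the background in every sample.

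The remaining uptake genes act in sensing, signalling and lipid handling. S1pr1, a receptor for sphingosine-1-phosphate, one of the lipids that dying cells release, rose from 116, 110 and 95.1 to 359, 469 and 437 normalized counts (log2 fold change 1.93, standard error 0.23, limma adjusted p = 0.00197) and passed with every sample left out in turn. Cx3cr1, the receptor for the chemokine fractalkine, had 1475, 1773 and 1750 normalized counts with PBS and 917, 1010 and 1078 with IRF5-NPs (-0.69, adjusted p = 0.0696). Vav1, an exchange factor that activates Rac and acts in the signalling of Mertk, had 1342, 1253 and 1321 normalized counts with PBS and 765, 853 and 756 with IRF5-NPs (-0.73, adjusted p = 0.0506). Both genes were lower after IRF5-NPs with no overlap of the groups, and neither passed. Nr4a1, a nuclear receptor, was at 0.74 (adjusted p = 0.163), and Apoe, the apolipoprotein that carries lipid out of the cell, at -0.48 (adjusted p = 0.608). Cd47 and Sirpa, the signal on healthy cells that blocks uptake and its receptor, did not pass either.

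**Figure D2:**
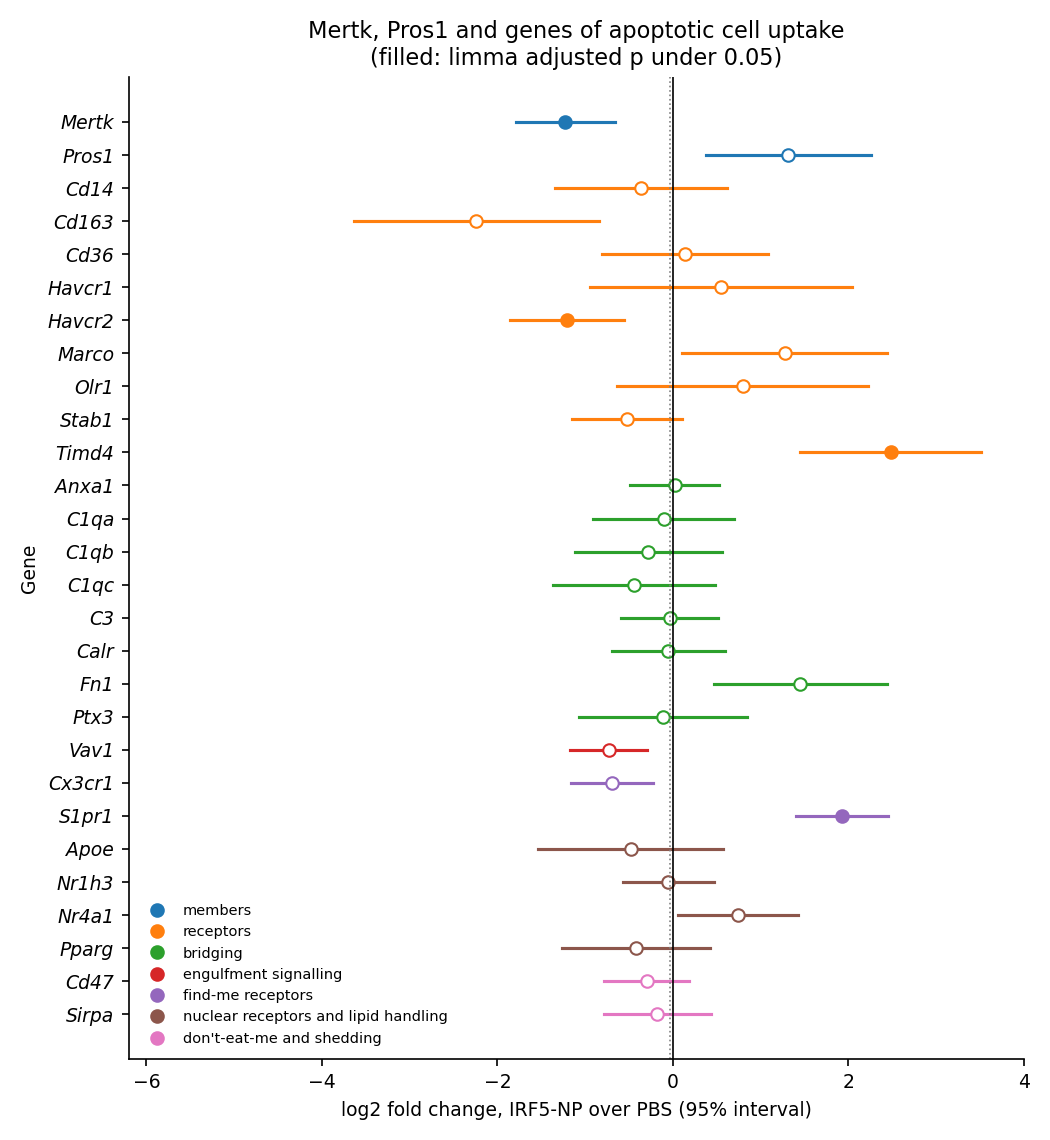
Log2 fold change of IRF5-NPs over PBS with its 95% interval for Mertk, Pros1 and the 26 uptake genes, coloured by role and filled where the limma adjusted p is under 0.05. The dotted line marks the median of all genes at -0.03. Mertk and Havcr2 are filled on the left, Timd4 and S1pr1 on the right, and Pros1 lies on the right without passing.

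TAM receptors are known to restrain cytokine signals through SOCS proteins, and 13 genes of this feedback and its targets were listed, all of which had a value. By limma 2 passed, both lower, a share of 15.4% against 7.03% of all genes that passed as lower, and the median log2 fold change was -0.36. Socs3, which blocks cytokine receptor signalling, had 2119, 1593 and 1585 normalized counts with PBS and 1106, 769 and 850 with IRF5-NPs (-1.03, adjusted p = 0.0380). Tnf, an inflammatory cytokine, had 330, 268 and 253 normalized counts with PBS and 104, 52.9 and 65.0 with IRF5-NPs (-2.03, adjusted p = 0.00932), where the value of IRF5-NP replicate 3 is below its background. Neither gene overlapped between the groups. Without PBS replicate 1 Tnf was at -1.86 (adjusted p = 0.0741) and Socs3 at -0.82 (0.165), and without IRF5-NP replicate 3 they were at -1.97 (0.0650) and -0.99 (0.180). These missed the threshold, as did Socs3 with IRF5-NP replicate 2 left out (-0.92, 0.135) and with a common median (-0.79, 0.0820). Il10, an anti-inflammatory cytokine, had 104, 40.4 and 45.1 normalized counts with PBS (log2 fold change -1.60, adjusted p = 0.0647, and -0.96, 0.396, without PBS replicate 1), and Ifnb1, interferon beta, had 71.6, 66.2 and 71.4 (-1.61, adjusted p = 0.0644). Both were below the background in all IRF5-NP samples, so that these changes are not well measured. Ifnar1, a chain of the receptor for interferon beta, was at -0.70 (adjusted p = 0.0968), and Il10ra at 0.50 (adjusted p = 0.195). Il6, another inflammatory cytokine, had 32.1, 148 and 139 normalized counts with PBS, the first below the background of PBS replicate 1. With IRF5-NPs it had 88.5, 259 and 242 (1.36, adjusted p = 0.265). Its groups overlapped, and without PBS replicate 1 it was at 0.30 (adjusted p = 0.894).

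Whether cells of the labelled type were measured was checked with macrophage markers. All 7 with a value were above the background in every sample. Their summed level was 78654, 73774 and 72441 normalized counts in PBS replicates 1, 2 and 3 and 54789, 111930 and 105581 in IRF5-NP replicates 1, 2 and 3. Itgam, the gene of CD11b, had the highest normalized counts on average, which does not rank transcripts, since probes differ in how well they bind. None passed by limma or by the methods' t-test after adjustment, and 3 had an unadjusted p under 0.05 by limma, as had 191 of all 754 genes. Adgre1, the gene of F4/80, had 6523, 9145 and 9049 normalized counts with PBS and 8749, 25506 and 22544 with IRF5-NPs (1.15, adjusted p = 0.181). Fcgr1, a high-affinity receptor for IgG, was at -0.86 (adjusted p = 0.0664) and lower in all IRF5-NP samples. The markers did not move as one, with Adgre1 and Itgam highest in IRF5-NP replicates 2 and 3. With each sample shifted by the mean log2 value of these markers, Mertk was at -2.32, -2.95 and -3.01 in PBS replicates 1, 2 and 3, and at -3.31, -4.16 and -4.01 in IRF5-NP replicates 1, 2 and 3. The groups did not overlap on this scale either, and the log2 fold change was -1.18 (limma adjusted p = 0.0696). Pros1 passed on this scale (1.36, adjusted p = 0.0366).

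Markers of resident peritoneal macrophages were higher with IRF5-NPs, though not all passed. Of 13 listed genes 5 had a value, and all 5 were higher after IRF5-NPs with no overlap of the groups, as were 17.0% of all genes. Their summed level was 8104, 18005 and 17695 normalized counts in PBS replicates 1, 2 and 3 and 27364, 49614 and 49891 in IRF5-NP replicates 1, 2 and 3, with the highest normalized counts on average for Alox15. By limma 3 passed, a share of 60.0% against 2.52% of all genes that passed as higher, namely Timd4, Cxcl13 (2.01, adjusted p = 0.0155) and Selp (2.19, adjusted p = 0.0423), and the 2 others were Gata6 (1.06, adjusted p = 0.0746), the transcription factor of these cells, and Alox15 (1.61, adjusted p = 0.0881). Without PBS replicate 1 Alox15 was at 0.69 (adjusted p = 0.452). PBS replicate 1 was lowest in the summed level and in Pros1, and highest in Mertk. How far the resident markers fell below the mean of PBS replicates 2 and 3 there was uneven, from 1.03-fold for Cxcl13 to 3.58-fold for Alox15. Selp lost the call with PBS replicate 1 left out (1.38, adjusted p = 0.235), and likewise for IRF5-NP replicate 1 (2.58, 0.0515), 2 (1.96, 0.0723) or 3 (2.03, 0.180). Cxcl13 lost it for PBS replicate 1 (1.99, adjusted p = 0.0870) and IRF5-NP replicate 3 (1.81, 0.0966). Timd4 lost it for the same samples, as given above, so that with either of them left out 0 of the 5 genes passed. The part of resident cells in the changes of Mertk and Pros1 was not tested. Each sample is a mixture of many cells, so that fewer cells with the transcript and less of it in each cell cannot be told apart.

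Markers of other cells that a sort might carry over were counted in the same way, beside the 9.55% of all genes that passed. Of 6 monocyte genes 1 passed, a share of 16.7%, which was Chil3, and it fell. The list had summed levels of 32323, 39313 and 38642 normalized counts with PBS and 8711, 12408 and 12371 with IRF5-NPs, and Chil3 had the highest normalized counts with PBS. The neutrophil list summed to 6815, 2277 and 2252 with PBS and 2556, 1614 and 1910 with IRF5-NPs, with the highest normalized counts on average for S100a8. S100a8 had 3405, 1171 and 1189 normalized counts with PBS and 987, 512 and 686 with IRF5-NPs, highest in PBS replicate 1 as Mertk was. Of the 9 neutrophil genes 22.2% passed, Csf3r as higher and Mmp8 as lower, though Mmp8 was above the background in 4 samples only. The defining marker Ly6g was above the background in 1 sample. The dendritic cell list summed to at most 433 normalized counts in a sample. Of its 6 genes Itgax (16.7%) passed as lower, with the value of IRF5-NP replicate 3 below its background. The eosinophil and mast cell list summed to at most 223, and Cpa3, 1 of its 9 genes (11.1%), passed as higher, though above the background in 2 samples only. The T cell list had 1 gene with a value, Cd27, below the background in every sample. The B cell gene Ms4a1 had 25.9, 18.6 and 16.3 normalized counts with PBS and 50.5, 60.6 and 75.4 with IRF5-NPs, above the background in 2 samples, and passed as higher. Of 3 NK cell genes Klrk1 alone was above the background, in 4 samples. No tumor or mesothelial cell marker had a value. The part of these cells in the change of Mertk was not tested.

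**Figure D3:**
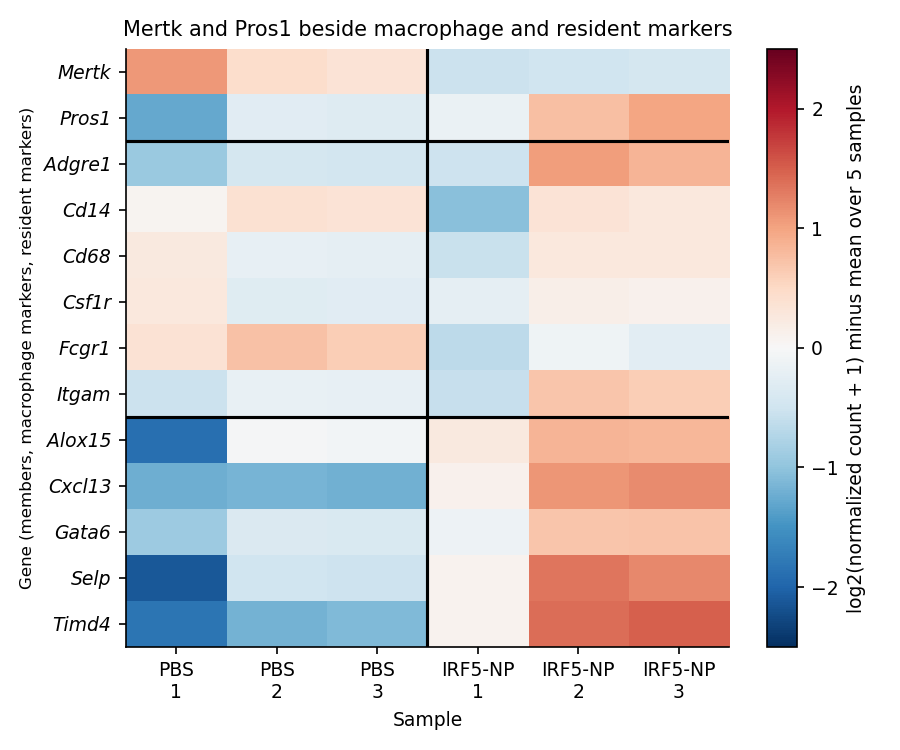
Log2 values with a pseudocount of 1, minus the mean over the 5 samples, for Mertk and Pros1 (top), 6 macrophage markers (middle) and 5 resident macrophage markers (bottom) in the 6 samples, red for above and blue for below the mean. The resident markers and Pros1 are lowest in PBS replicate 1, where Mertk is highest, though Cxcl13 by only 1.03-fold from the mean of PBS replicates 2 and 3.

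The genes whose pattern over the 5 samples was most like that of Mertk were sought among the 481 other genes above the background in every sample, by the root mean square difference of log2 values after each gene's mean was subtracted. Nearest was Tnfrsf11a (RANK), the receptor for the cytokine RANKL, with a root mean square difference of 0.04. It had 757, 508 and 464 normalized counts with PBS and 260, 271 and 283 with IRF5-NPs, so that its profile nearly lay on that of Mertk. Next came Fcgr2b, the inhibitory receptor for IgG (0.10), Vcam1, an adhesion molecule (0.13), Mmp19, a matrix protease (0.14), and Aoah, an enzyme that inactivates bacterial lipopolysaccharide (0.14). All 5 were highest in PBS replicate 1 and lowest in the IRF5-NP samples. Their levels are a description, since they were picked for this pattern.

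Genes with a pattern near that of Pros1 were sought in the same way, after its value was seen. Their likeness to Pros1 follows from this choice. Nearest was Irf7, a regulator of the interferon response, with a root mean square difference of 0.06, and near it were Fabp4, a carrier of fatty acids (0.15), P2rx1, an ATP-gated channel (0.17), and Trem1, an activating receptor of myeloid cells (0.17). Irf7 had 391, 717 and 747 normalized counts with PBS and 753, 1423 and 1723 with IRF5-NPs. These genes were lowest in PBS replicate 1 and highest in IRF5-NP replicates 2 and 3, with IRF5-NP replicate 1 closer to PBS replicates 2 and 3 than to the other IRF5-NP samples.

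**Figure D4:**
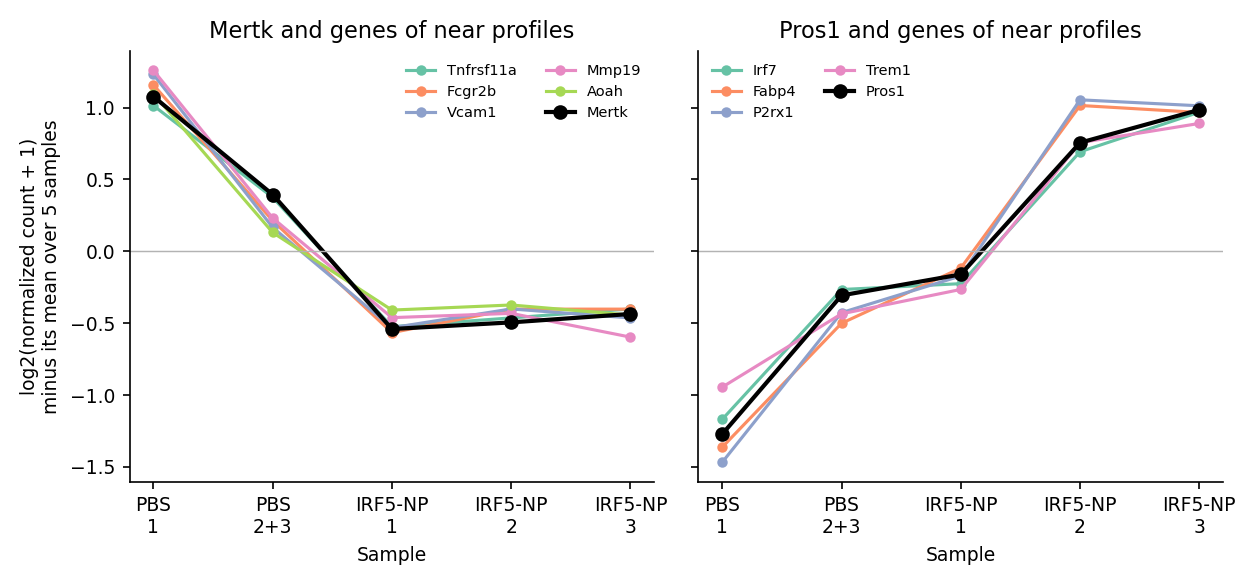
Log2 values with a pseudocount of 1, minus each gene's mean over the 5 samples, for Mertk (left, black) and Pros1 (right, black) with genes of near profiles, 5 for Mertk and 4 for Pros1, where lines join the values of 1 gene. Mertk and its neighbours are high in PBS replicate 1 and low in the 3 IRF5-NP samples, whereas Pros1 and its neighbours are low in PBS replicate 1 and high in IRF5-NP replicates 2 and 3.

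The direction of both genes held under each of the 20 other settings tried. Mertk lay between -1.27 and -0.89 on the log2 scale and passed the threshold in 10 of them. Pros1 lay between 0.83 and 1.66 and passed in 4.

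**Figure D5:**
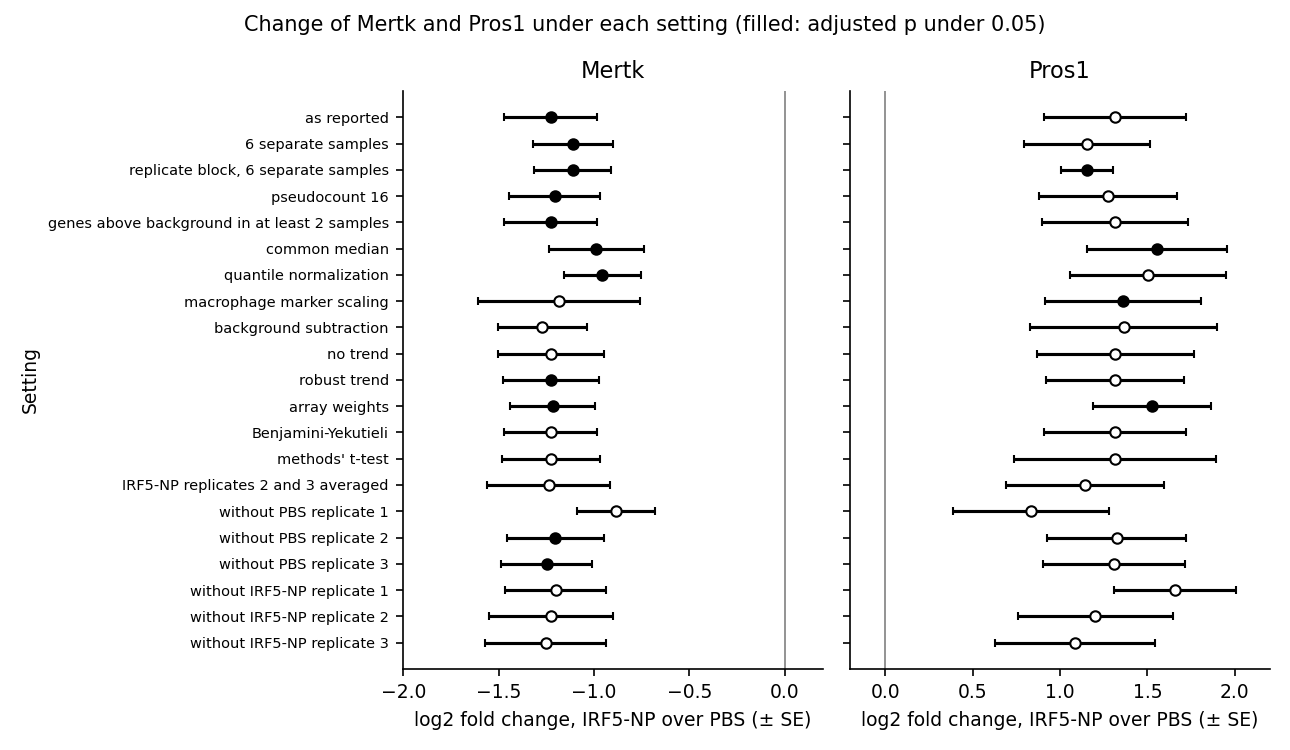
Log2 fold change of IRF5-NPs over PBS with its standard error for Mertk (left) and Pros1 (right) as reported and under 20 other settings, filled where the adjusted p is under 0.05. All values of Mertk lie below 0 and all values of Pros1 above 0.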

How the data were processed

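Expression was measured with the NanoString nCounter Myeloid Innate Immunity Panel, in which every transcript is counted through its own barcoded probe. The deposited values are a signal, counts that the authors scaled in nSolver by a geometric mean over housekeeping genes, after quality control with NanoStringQCPro. The methods state these steps for cultured macrophages, along with a log2 step, but the values deposited are linear. They covered 768 probes, 754 for genes, 8 negative and 6 positive controls. Of the gene symbols, 744 matched RefSeq by symbol and 9 by synonym. The members and gene lists were chosen with earlier results of these data known.

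Groups were taken from the sample titles. All genes were fitted with limma 3.58.1 in R 4.3.3 (lmFit, eBayes with a mean-variance trend, two-sided) after log2 of the value plus a pseudocount of 1, with Benjamini-Hochberg adjustment over 754 genes at 0.05 and no filter. PBS replicates 2 and 3 were averaged on the log2 scale. The methods' t-test here means the unpaired Student's t-test that the methods name, run on these same averaged samples with Benjamini-Hochberg adjustment. The methods state the Benjamini-Yekutieli adjustment instead, so its outcome is not that of the study's own procedure. Recovered counts served depth, background and the comparison of samples, and no test for counts was run. Named genes were the members, genes of the fixed lists, and the 5 nearest profiles of each member, where the rule had asked for those of Mertk and those of Pros1 were added after its value was seen, and some genes under this rule are not reported here. The fit was tested on simulated data, but the outcome is not reported here and no result rests on it. Promoters came from the RefSeq table of GRCm38.p6. Plots were made in Python 3.11.15 (matplotlib 3.10.9).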

Additional observations from a re-analysis of the deposited data

How the results depend on the processing

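Of the 20 alternatives, 10 kept Mertk past the threshold and 4 brought Pros1 past it, with no change of direction. Mertk did not pass with macrophage marker scaling (-1.18, adjusted p = 0.0696), background subtraction (-1.27, 0.103), no trend (-1.23, 0.0589), the Benjamini-Yekutieli adjustment (-1.23, 0.157), the methods' t-test (-1.23, 0.208) or IRF5-NP replicates 2 and 3 averaged (-1.24, 0.0823), and ranged from -1.25 to -0.89 with each sample left out. Pros1 passed with the replicate block on 6 separate samples (1.15, 0.00391), a common median (1.55, 0.0494), macrophage marker scaling (1.36, 0.0366) and array weights (1.52, 0.0188), and ranged from 0.83 to 1.66 with each sample left out. C1qa, near 0 throughout, turned to 0.13 with a common median and 0.23 with quantile normalization, and ranged from -0.25 to 0.056 with each sample left out.

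The 72 panel genes past the threshold became 121 with 6 separate samples, 135 with 6 separate samples and the replicate block, 125 with array weights, 41 without a trend, 24 with background subtraction, 31 with IRF5-NP replicates 2 and 3 averaged, 21 with Benjamini-Yekutieli and 0 with the methods' t-test (125 at an unadjusted p under 0.05, against 191 by limma), and 21 (without IRF5-NP replicate 3) to 83 (without PBS replicate 2) with each sample left out. The 3 uptake genes became 6 with 6 separate samples, 8 with these and the replicate block, 9 with array weights, 5 with macrophage marker scaling or a robust trend, 1 with Benjamini-Yekutieli and 0 with the methods' t-test, and 1 to 5 with each sample left out. The replicate numbers are not known to pair the samples. The correlation of deviations from the group means over 482 genes was 0.16, 0.18 and 0.10 for equal numbers, PBS replicate 3 was closer to IRF5-NP replicate 2, and Mertk was at -1.11 with 6 separate samples, both without the block (adjusted p = 0.0110) and with it (0.0128). Over the other single-gene values, 590 alternatives kept direction and call, 73 lost the call, 73 gained it and 4, all of C1qa, changed direction. Causes were not tested.

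With 2 PBS samples the exact test cannot go below 0.1, and values with 1 PBS sample left assume that it varies like the other group. The shallow IRF5-NP replicate 3 set the highest background, and 124 genes were below the background in every sample. A planned count test in edgeR was not run.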

Other observations

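Samples of a group differed among themselves beyond the genes of interest. Of the 482 genes above the background in every sample, 48 (9.96%) differed by over 2-fold between PBS replicate 1 and the mean of PBS replicates 2 and 3, and of the 23 uptake genes so measured 3 did. These were Cd163, 5.44-fold higher in PBS replicate 1, Olr1, a scavenger receptor, 4.79-fold lower, and Fn1, 2.05-fold lower. Between IRF5-NP replicate 1 and the mean of IRF5-NP replicates 2 and 3, 35 of the 482 genes (7.26%) and 4 of the 23 uptake genes differed by over 2-fold. These were Marco (3.13-fold), Timd4 (2.58-fold), Cd14 (2.54-fold) and Cd36 (2.29-fold), all lower in IRF5-NP replicate 1, as was Pros1 (2.04-fold), whereas Mertk differed by 1.05-fold.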
